A study of Xenopus laevis with 9 samples.

Results

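Anterior explants of wild-type *Xenopus laevis* embryos treated with 1 µM retinoic acid (RA) were compared with explants kept in the solvent dimethyl sulphoxide (DMSO, labelled 10 µM), gene by gene and across the whole transcriptome. The explants, which hold the anterior part of the embryo, were cut at Nieuwkoop and Faber (NF) stage 12.5, the end of gastrulation, from embryos of 3 females, and were cultured in 0.1X NAM, a salt solution, until NF stage 15, the early neurula. Each treatment had 3 libraries, numbered 1 to 3, so 6 of the 9 samples of the series entered the comparison, and the remaining 3 had received 10 µM 4-oxo-RA. Of 58413 rows in the count table, 20811 had enough counts to be tested. The labels name neither the size of the pool of explants behind each library nor whether libraries of a treatment were separate cultures, and the spread behind each p-value may therefore be technical only.

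RA is made from vitamin A in 2 oxidation steps, the first by retinol dehydrogenases such as rdh10 and the second by retinaldehyde dehydrogenases such as aldh1a2. It binds nuclear receptors of the rar and rxr families, which sit on DNA and switch transcription of nearby genes. In vertebrate embryos RA from the trunk patterns the hindbrain, where it induces Hox genes, while enzymes of the cyp26 family break it down and keep the head region low in RA. An excess of RA at neurula stages is known to shift anterior neural tissue towards posterior fates.

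Library totals over the 6 libraries ran from 9.40 to 20.9 in units of 10⁶ counts, and the 10 most abundant genes held between 6.23% and 7.19% of counts over all 9 libraries. Levels are in CPM, the counts per 10⁶ counts of a library after TMM scaling. Triplets of values follow the library numbers 1, 2 and 3. Fold changes are log2 values of RA over DMSO ± SE from edgeR's quasi-likelihood test with the library number as a block. The test itself gives no SE. It was derived as the size of the fold change over the square root of the test's F statistic, and is only approximate for nearly silent genes. A gene was called when its Benjamini-Hochberg adjusted p over all tested genes was below 0.05. For some classes the number at an unadjusted p below 0.05 is also given. Over all 20811 tested genes that number was 3769, in either direction. Where a call was not made without the block, the adjusted p of that fit follows, and each library whose single omission ended the call of a gene is named beside it. Of the markers that passed the count filter, 11 of 11 rows for forebrain and eye, 5 of 5 for cement gland and 7 of 8 for neural crest had at least 1 CPM in DMSO. So did 6 of 6 rows for heart, 5 of 5 each for endoderm and pronephros, and 3 of 3 for tail bud and posterior axis, so presence at this level does not test the labelled anterior origin. Somite muscle markers, which belong to posterior tissue, followed the library number. Their summed level ran from 25.7 to 300.1 CPM in DMSO and from 9.25 to 200.9 CPM with RA and was highest in number 1 of both. Of the 3 tested muscle rows 1 was called, the muscle actin actc1.L, at 265, 86.5 and 19.6 CPM in DMSO and 163, 12.9 and 5.71 CPM with RA (−1.57 ± 0.44, edgeR adjusted p = 0.0433 and 0.922 without the block). The muscle regulator myod1.S was at 27.8, 12.5 and 4.27 CPM in DMSO and 29.2, 3.51 and 3.01 CPM with RA (−0.69 ± 0.33, edgeR adjusted p = 0.283). The call of actc1.L ended without DMSO library 1 or 2 or RA library 2 or 3 (edgeR adjusted p up to 0.252). The part of muscle transcript in the other results was not tested.

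RA changed 1389 genes, 6.67% of those tested. A total of 729 genes rose (3.5%) and 660 fell (3.17%), so 52.5% of the calls were rises. The median called rise was 0.92 and the median called fall −0.82 on the log2 scale. Among the rises, 333 were at least 2-fold, 136 at least 4-fold and 62 at least 8-fold. Among the falls the counts were 248, 66 and 16. The direction was the same in all 3 number-matched pairs for 727 of the rises and 656 of the falls, and the ranges of the RA and DMSO libraries did not overlap for 596 and 453. These genes were selected for the difference, so such counts are no separate support for the calls. The same counts over all tested genes are not given. Without the block, 349 genes were called (1.68%), of which 254 rose and 95 fell, and all of them were among the blocked calls in the same direction. Rises therefore made up 72.8% of calls in that fit. The median gene of the whole table moved by −0.0039 under TMM scaling and by −0.046 when libraries were scaled to their totals. Called genes numbered 856 without DMSO replicate 3, 925 without RA replicate 2 and 732 without RA replicate 3, and falls numbered 412 without DMSO replicate 2, 367 without DMSO replicate 3, 390 without RA replicate 2 and 292 without RA replicate 3, which also lowered the rises to 440. All 6 single-library omissions kept 384 of the rises and 225 of the falls.

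**Figure D1:**
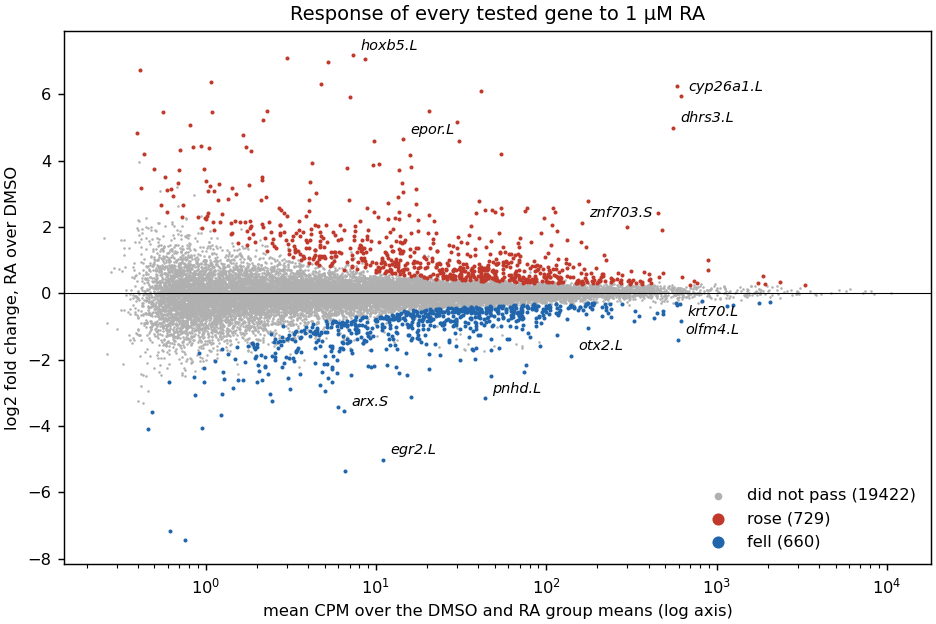
Log2 fold change of RA over DMSO against the mean of the DMSO and RA group means in CPM (log axis) for the 20811 tested genes, with called rises in red (729) and called falls in blue (660). The highest points are low in abundance except for both copies of cyp26a1 and dhrs3.L, whose level with RA was 1152 CPM for cyp26a1.S and 1079 CPM for dhrs3.L.

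The size of the called changes differed with the level in DMSO. Of 2598 tested genes with less than 1 CPM in DMSO, 84 rose, by a median of 3.10, and 2 fell. In the range from 1 to 10 CPM the median rise was 1.35 (218 genes) and the median fall −1.56 (164 genes). Between 10 and 100 CPM the medians were 0.69 (339 genes) and −0.72 (404 genes), and at 100 CPM or more 0.40 (88 genes) and −0.49 (90 genes). These sizes are partly set by the test, since a low gene passes only with a large fold change. The direction in the lowest range is partly set as well. A gene nearly silent in DMSO can hardly be called as a fall, and may have passed the count filter through the treated libraries. In summed expression the genes that rose went from 42454 ± 2759 CPM in DMSO to 69330 ± 7194 CPM with RA (SD, n = 3). The genes that fell went from 43618 ± 807 to 29332 ± 3706 CPM. Both sums are descriptions of the called genes, which were selected for the difference. The 4 genes cyp26a1.L, cyp26a1.S, dhrs3.L and has1.S held 15.1% of the CPM gained.

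The response was not equally large in the 3 pairs. The median log2 ratio of the genes that rose was 0.81 in pair 1, 0.87 in pair 2 and 0.99 in pair 3, and that of the genes that fell was −0.63, −0.87 and −0.91. Pair 1 showed the smallest of the 3 changes for 363 of the 729 rises and 397 of the 660 falls. Pair 1 was also the pair with the most muscle transcript and the smallest libraries (9.40 and 11.1 in units of 10⁶ counts), and the part of either in its smaller response was not tested.

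A handful of genes went from near silence to measurable expression. With at most 3 counts over the DMSO libraries, hoxa5.L had 1 count in DMSO and 31 with RA, hoxb7.L had 2 and 68, hoxb7.S had 3 and 37, tcf21.S had 2 and 32, and akr1c2.S had 1 and 90. Near silence held for the S copy of akr1c2 only. Its L copy, akr1c2.L, was at a mean of 22.6 CPM in DMSO and 26.8 CPM with RA (0.30 ± 0.18, edgeR adjusted p = 0.409). The mean of akr1c2.S with RA was 2.14 CPM. The aldo-keto reductase family of akr1c2 acts on steroids in mammals, and tcf21 is a bHLH factor of head muscle and kidney. In the opposite direction, the forkhead gene foxb2.S had 71 counts in DMSO and 0 with RA, at least 20.8-fold lower against a floor of 3 counts over the group. The homeobox gene barhl2.L had 61 and 0 counts, at least 17.0-fold lower. The AP-2 gene tfap2d.S went from 44 counts to 2. These floors cover counting error only. Of the genes in this paragraph, hoxa5.L, hoxb7.L, hoxb7.S, tcf21.S and tfap2d.S were called with the block and not without it, at edgeR adjusted p of 0.141, 0.089, 0.0746, 0.113 and 0.15. The call of hoxa5.L ended without DMSO library 1 or 3 or RA library 1 or 2 (edgeR adjusted p up to 0.208). The call of hoxb7.S ended without DMSO library 2 or 3 or RA library 3 (edgeR adjusted p up to 0.119). The call of tcf21.S ended without DMSO library 2 (edgeR adjusted p = 0.0518). The call of tfap2d.S ended without RA library 2 or RA library 3.

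Genes that remove RA or its precursor gave the 3 largest gains in CPM, cyp26a1.L, cyp26a1.S and dhrs3.L. Of 26 tested genes for retinoid metabolism and binding, 14 rose, 3 fell and 9 did not pass, with a median of 0.62 against −0.0039 over all genes (7 rose and 0 fell without the block). Their summed level ran from 1123 to 1311 CPM in DMSO and from 5266 to 6067 CPM with RA. The RA hydroxylase cyp26a1.S was at 18.03, 11.7 and 16.3 CPM in DMSO and 1042, 1091 and 1324 CPM with RA (6.26 ± 0.13, edgeR adjusted p = 1.46e-13). Its homeolog cyp26a1.L was at 19.6, 14.2 and 26.9 CPM in DMSO and 1038, 1156 and 1442 CPM with RA (5.93 ± 0.13, edgeR adjusted p = 2.06e-13). Every RA library of both copies lay more than an order of magnitude above every DMSO library. The retinaldehyde reductase dhrs3.L, which returns retinaldehyde to retinol, was at 43.7, 22.1 and 39.5 CPM in DMSO and 1136, 946 and 1153 CPM with RA (4.99 ± 0.12, edgeR adjusted p = 8.23e-13).

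The other members of the cyp26 family differed in where they started. For cyp26b1.L, nearly silent in DMSO, the values were 0, 0.0906 and 0.112 CPM in DMSO and 6.78, 11.2 and 13.3 CPM with RA (6.98 ± 0.40, edgeR adjusted p = 3.03e-08). For cyp26c1.S they were 145, 159.7 and 122 CPM in DMSO and 735, 723 and 842 CPM with RA (2.42 ± 0.14, edgeR adjusted p = 3.94e-08). In cyp26c1.L the number-matched libraries moved together, at 71.6, 47.2 and 20.6 CPM in DMSO and 422, 319.8 and 174 CPM with RA (2.78 ± 0.11, edgeR adjusted p = 5.99e-10), and the level in each RA library was above its own DMSO library. The retinol dehydrogenase rdh11.S rose from 3.75, 2.58 and 3.37 to 6.14, 14.5 and 15.03 CPM (1.87 ± 0.29, edgeR adjusted p = 0.000733). Smaller changes were called for the cellular RA-binding genes crabp2.S (0.69 ± 0.09, edgeR adjusted p = 0.000142 and 0.199 without the block) and crabp2.L (0.65 ± 0.14, edgeR adjusted p = 0.0074 and 0.243 without the block). The call of crabp2.L ended without RA library 2 or 3 (edgeR adjusted p up to 0.0719). Rises were also called for the dehydrogenase genes rdh7.L (1.26 ± 0.25, edgeR adjusted p = 0.00549 and 0.071 without the block) and sdr16c5.L (0.52 ± 0.12, edgeR adjusted p = 0.0157 and 0.116 without the block). The call of rdh7.L ended without DMSO library 2 or RA library 2 (edgeR adjusted p up to 0.0927). The call of sdr16c5.L ended without DMSO library 2 or 3 or RA library 2 or 3 (edgeR adjusted p up to 0.157). The 3 falls were in aldh1a2.L, aldh1a2.S and rdh10.L, which encode enzymes of RA synthesis. Expression of aldh1a2.L was 99.8, 70.6 and 88.3 CPM in DMSO and 57.2, 28.99 and 19.8 CPM with RA (−1.37 ± 0.19, edgeR adjusted p = 0.00026 and 0.104 without the block). Expression of rdh10.L was 241, 239.8 and 308 CPM in DMSO and 183, 123 and 187 CPM with RA (−0.69 ± 0.10, edgeR adjusted p = 0.000265 and 0.0893 without the block). In both genes the RA and DMSO ranges did not overlap. The other copy, rdh10.S, was at 0.31 ± 0.12, edgeR adjusted p = 0.137, and the difference of L minus S was −1.02 ± 0.14 (edgeR adjusted p = 0.00121). The S copy of aldh1a2 also fell (−1.06 ± 0.22, edgeR adjusted p = 0.00739 and 0.415 without the block). The call of aldh1a2.S ended without DMSO library 2 or 3 or RA library 3 (edgeR adjusted p up to 0.115). Of 22 other cytochrome P450 genes, edgeR called 0 rises and 1 fall, cyp2u1.L (−1.39 ± 0.40, edgeR adjusted p = 0.0497 and 0.267 without the block). The call of cyp2u1.L ended without DMSO library 1, 2 or 3 or RA library 2 or 3 (edgeR adjusted p up to 0.346). At an unadjusted p below 0.05 the counts were 0 and 3, and DESeq2 called 0 and 1. The edgeR calls were 4.55% of these P450 genes against 6.67% of all genes, and are not a result of the class.

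Of 44 nuclear receptors tested, 4 rose and 4 fell (2 and 0 without the block), and the median was −0.01. The RA receptor rara.L rose from 15.7, 13.4 and 13.8 to 39.9, 46.2 and 52.5 CPM (1.70 ± 0.13, edgeR adjusted p = 5.96e-07), and its partner rxra.L was called at 0.87 ± 0.16, edgeR adjusted p = 0.00231 and 0.441 without the block. Orphan receptors were called in both directions. The other rises were the orphan receptors esrra.L and nr2f5.S, the latter a further nr2f gene, and their fits without the block are not given. The 4 falls were orphan receptors too, nr2f1.S, nr2f2.L, nr2f2.S and nr2e1.S. The first 3 of these falls belong to the COUP-TF group, which can compete with rar and rxr for DNA. None of the 4 was called without the block. The call of nr2f1.S ended without DMSO library 2 or 3 or RA library 2 or 3 (edgeR adjusted p up to 0.134). The call of nr2f2.S ended without DMSO library 1, 2 or 3 or RA library 2 or 3 (edgeR adjusted p up to 0.322). The call of nr2e1.S ended without DMSO library 2 or 3 or RA library 2 or 3 (edgeR adjusted p up to 0.191). The values of nr2f2.L were 52.01, 57.6 and 52.4 CPM in DMSO and 31.97, 16.01 and 8.87 CPM with RA (−1.69 ± 0.23, edgeR adjusted p = 0.000272 and 0.107 without the block). The RA libraries of this gene spread over more than 3-fold while the DMSO libraries lay close together.

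Hox genes, which give cells their position along the head to tail axis, rose as a group. All 18 tested genes of paralogue groups 1 to 5 rose (16 without the block), with a median of 2.57, and so did 5 of the 7 tested genes of groups 6 to 9 (2 without the block). Falls numbered 0 among these 25 genes, also at an unadjusted p below 0.05 and with DESeq2. Several were nearly silent in DMSO, such as hoxb5.L with 5 counts and hoxb7.L with 2, and could hardly be called as falls. Hox genes low in all groups were not tested. The lack of falls and the share of rises are therefore partly set by the choice of tested genes. The genes of groups 1 and 2 described here, 7 in all, rose by 1.33 to 2.51, from DMSO means of 3.58 to 15.01 CPM. The 9 genes of groups 3 to 5 rose by 2.48 to 7.17, from DMSO means of at most 3.22 CPM. The genes of groups 6 to 9 started at 1.14 CPM or less and reached at most 9.45 CPM.

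The values by library show how sharp the switch was. For hoxb5.L they were 0, 0.0906 and 0.169 CPM in DMSO and 6.504, 13.7 and 23.8 CPM with RA (7.17 ± 0.35, edgeR adjusted p = 4.84e-09). For hoxb5.S they were 0.208, 0.0906 and 0.112 CPM in DMSO and 12.3, 14.6 and 24.5 CPM with RA (7.06 ± 0.33, edgeR adjusted p = 3.22e-09). Those of hoxd4.L were 2.29, 1.54 and 0.112 CPM in DMSO and 49.5, 87.4 and 106 CPM with RA (6.10 ± 0.42, edgeR adjusted p = 1.79e-07). Expression of hoxb4.S was 3.86, 1.31 and 2.92 CPM in DMSO and 46.5, 62.2 and 67.7 CPM with RA (4.58 ± 0.28, edgeR adjusted p = 5.39e-08). In each of these 4 genes all RA libraries were above all DMSO libraries, as the rule that named them required. Both copies of hoxb6 rose as well, hoxb6.L from 0, 0.227 and 0.0562 to 4.12, 13.04 and 11.2 CPM (6.32 ± 0.46, edgeR adjusted p = 3.97e-07). The S copy, hoxb6.S, rose from 0.104, 0.136 and 0.0562 to 3.21, 2.86 and 6.62 CPM (5.23 ± 0.53, edgeR adjusted p = 1.29e-05). The values of hoxb7.L were 0.208, 0 and 0 CPM in DMSO and 1.01, 2.38 and 1.28 CPM with RA (5.06 ± 1.08, edgeR adjusted p = 0.00885 and 0.089 without the block), and the 2 genes that did not pass were hoxc6.L (1.59 ± 0.64, edgeR adjusted p = 0.182) and hoxb9.S (1.89 ± 0.76, edgeR adjusted p = 0.183). The call of hoxb7.L ended without DMSO library 2 or 3 or RA library 2 (edgeR adjusted p up to 0.0916). The trunk and tail genes hoxa9, hoxa10, hoxc10 and hoxd10 were not tested under those symbols. A gene with the provisional symbol hoxa4 rose from 1.88, 0.861 and 2.42 to 54.1, 49.1 and 70.96 CPM (5.16 ± 0.18, edgeR adjusted p = 1.43e-10).

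**Figure D2:**
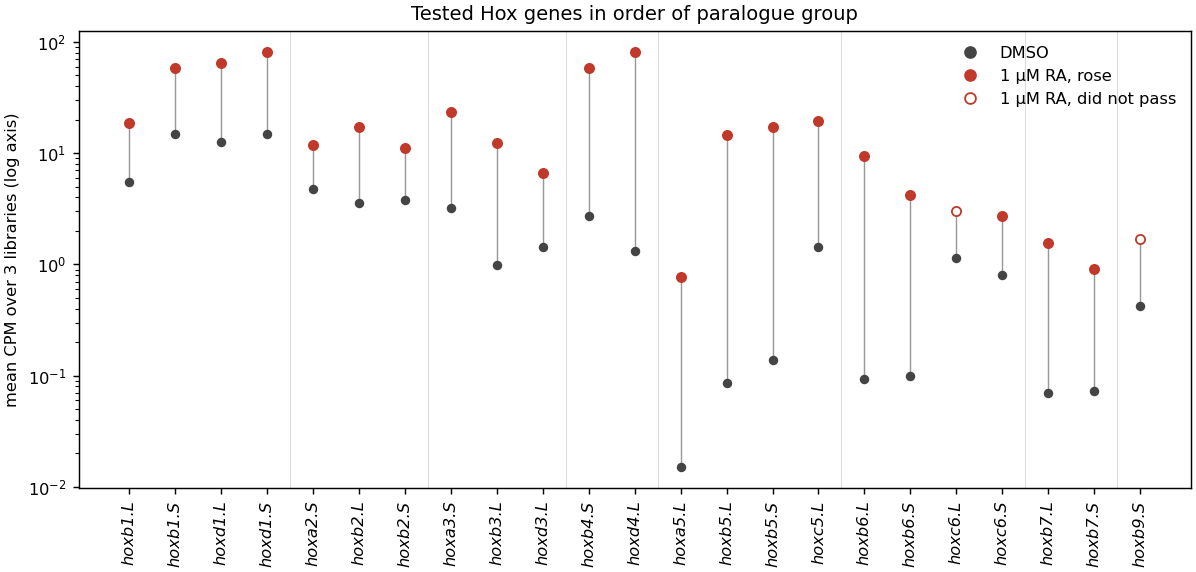
Mean CPM (log axis, n = 3) of 23 tested Hox genes in DMSO (grey) and 1 µM RA (red, open where the test was not passed), ordered by paralogue group with thin lines between groups. The grey points of groups 1 and 2 lie at 3.58 CPM or higher and those of groups 3 to 9 at 3.22 CPM or lower, and each red point lies to the higher side of its grey one.

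TALE homeobox genes, whose products bind DNA together with Hox proteins, split. Of 20 tested, 7 rose and 5 fell (4 and 0 without the block). The meis genes were the main rises. Expression of meis3.L was 133, 131 and 96.2 CPM in DMSO and 433, 452 and 543 CPM with RA (1.99 ± 0.12, edgeR adjusted p = 5.26e-08), meis3.S rose by 1.40 ± 0.12 and meis2.L by 1.53 ± 0.10. The Iroquois genes went both ways, with irx3.L higher (0.73 ± 0.13, edgeR adjusted p = 0.00261) and irx2.S lower, at 29.6, 33.4 and 33.3 CPM in DMSO and 13.8, 16.9 and 23.1 CPM with RA (−0.86 ± 0.14, edgeR adjusted p = 0.000906 and 0.073 without the block).

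Outside these families, rises named for their size, for a small p or within a class were in genes of several functions. The erythropoietin receptor gene epor.L was at 1.46, 0.815 and 1.01 CPM in DMSO and 40.2, 24.3 and 18.9 CPM with RA (4.64 ± 0.23, edgeR adjusted p = 5.79e-09). The gene of the secreted chaperone clusterin, clu.L, was at 1.56, 0.408 and 0.618 CPM in DMSO and 18.3, 11.2 and 26.2 CPM with RA (4.58 ± 0.35, edgeR adjusted p = 6.47e-07). Expression of ripply3.S, a corepressor of T-box factors, was 4.06, 6.52 and 6.24 CPM in DMSO and 63.9, 129.5 and 116 CPM with RA (4.21 ± 0.13, edgeR adjusted p = 2.85e-11). The corepressor znf703 was among the most uniform rises in both copies, with znf703.S at 63.8, 57.1 and 60.2 CPM in DMSO and 281, 233 and 278 CPM with RA (2.12 ± 0.08, edgeR adjusted p = 1.43e-10). The L copy, znf703.L, was at 42.9, 39.3 and 43.9 CPM in DMSO and 180.1, 157 and 184 CPM with RA (2.05 ± 0.08, edgeR adjusted p = 4.06e-10). All RA libraries of these 5 genes lay above all DMSO libraries, as the rule that named them required. The bHLH repressor bhlhe40.L rose from 2.81, 1.54 and 1.69 to 25.2, 27.7 and 22.6 CPM (3.72 ± 0.25, edgeR adjusted p = 1.35e-07). The nicotinic acetylcholine receptor subunit gene chrnb4.L rose from 0.208, 0.0453 and 0.112 to 3.298, 1.79 and 4.44 CPM (4.78 ± 0.65, edgeR adjusted p = 0.000223). A gene with the provisional symbol rerg rose by 4.17 ± 0.19 (edgeR adjusted p = 2.53e-09).

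**Figure D3:**
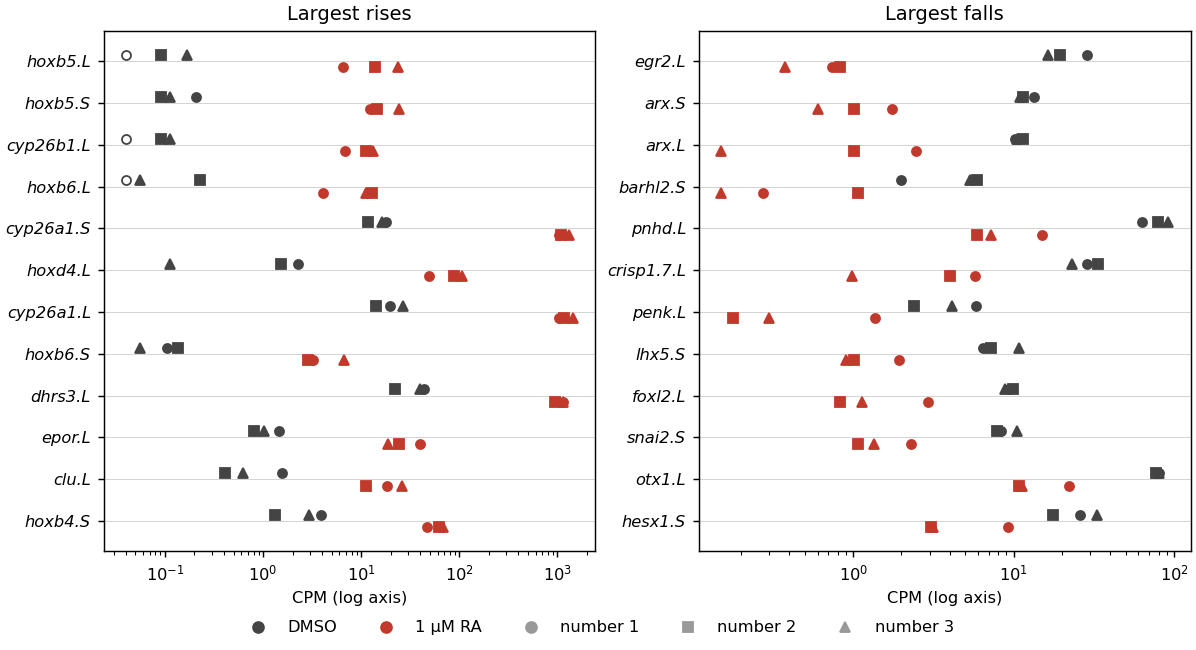
CPM (log axis) in each of the 3 DMSO (grey) and 3 RA (red) libraries for the 12 largest rises (left) and the 12 largest falls (right) among called genes with at least 2 CPM on average and no overlap, with the symbol giving the library number. Open symbols at the left edge stand for 0 CPM, and by the choice of genes the 2 colours are apart in each.

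Of the 5 tested rows of hindbrain markers 3 rose and 2 fell. The hindbrain is divided into segments called rhombomeres. The zinc finger gene egr2.L, which marks rhombomeres 3 and 5, fell from 28.7, 19.4 and 16.3 to 0.733, 0.833 and 0.376 CPM (−5.01 ± 0.28, edgeR adjusted p = 2.41e-08), the largest fall among genes with a full symbol, a mean of at least 2 CPM and no overlap. The Eph receptor gene epha4.S, expressed in the same segments, fell from 163, 168 and 158 to 71.7, 72.6 and 61.04 CPM (−1.26 ± 0.08, edgeR adjusted p = 1.35e-07). The more abundant copy, epha4.L, fell by less, from a mean of 259 to 187 CPM (−0.51 ± 0.10, edgeR adjusted p = 0.00361 and 0.492 without the block). Its single-library omissions are not given. For epha4 the difference of L minus S was 0.75 ± 0.12 (edgeR adjusted p = 0.00268 and 0.132 without the block). The basic leucine zipper gene mafb.S, of rhombomeres 5 and 6, was at 52.4, 28.8 and 35.6 CPM in DMSO and 25.3, 13.2 and 21.8 CPM with RA (−0.95 ± 0.24, edgeR adjusted p = 0.0246 and 0.224 without the block). The call of mafb.S ended without DMSO library 1 or 3 or RA library 2 (edgeR adjusted p up to 0.165). Rises were called for hoxb1.S and hoxb1.L, which mark rhombomere 4 at later stages (2.04 ± 0.18, edgeR adjusted p = 2.90e-06 for the S copy). In these bulk samples fewer cells of a type and less RNA per cell cannot be told apart.

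At the boundary of midbrain and hindbrain the genes also parted. All 4 tested gbx2 copies, which lie on the hindbrain side, rose. The values of gbx2.2.S were 10.4, 10.7 and 9.38 CPM in DMSO and 55.8, 73.7 and 81.8 CPM with RA (2.79 ± 0.15, edgeR adjusted p = 1.25e-08), and gbx2.1.S, gbx2.2.L and gbx2.1.L rose by 1.81, 1.21 and 0.84. The growth factor gene fgf8 rose in both copies, fgf8.L from 37.9, 39.3 and 31.3 to 66.97, 64.8 and 68.9 CPM (0.89 ± 0.12, edgeR adjusted p = 0.000219). Calls with the opposite sign were made for wnt1.L (−2.45 ± 0.37, edgeR adjusted p = 0.000615 and 0.181 without the block), en2.S (−0.83 ± 0.21, edgeR adjusted p = 0.0277 and 0.89 without the block) and pax2.L (−0.74 ± 0.19, edgeR adjusted p = 0.0273 and 0.375 without the block). The call of en2.S ended without DMSO library 2 or 3 or RA library 2 or 3 (edgeR adjusted p up to 0.213). The call of pax2.L ended with any 1 of the 6 libraries left out (edgeR adjusted p up to 0.157). The levels of en2.S were 28.9, 25.9 and 12.98 CPM in DMSO and 28.03, 10.00 and 5.79 CPM with RA, and with RA its number 1 library lay within the DMSO range.

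Most rows of the forebrain and eye markers fell, all of them in fezf2, hesx1, otx2 and six3. Of their 11 tested rows 7 fell and 4 did not pass, and the latter held every tested row of rax and pax6. Of 34 paired-type homeobox genes, a class with many anterior members, 20 fell and 3 rose (15 and 2 without the block), with a median of −0.92. Expression of otx2.L, required for forebrain and midbrain, was 199, 247 and 209 CPM in DMSO and 73.7, 73.3 and 38.9 CPM with RA (−1.87 ± 0.14, edgeR adjusted p = 4.36e-07). Expression of the related otx1.L was 80.4, 77.3 and 80.7 CPM in DMSO and 22.2, 10.8 and 11.4 CPM with RA (−2.50 ± 0.17, edgeR adjusted p = 1.48e-07). The forebrain gene arx.S went from 13.3, 11.5 and 11.01 to 1.74, 1.01 and 0.601 CPM (−3.54 ± 0.41, edgeR adjusted p = 5.09e-05). Its L copy, arx.L, went from 10.2, 11.4 and 10.5 to 2.47, 1.01 and 0.1503 CPM (−3.44 ± 0.47, edgeR adjusted p = 0.000231 and 0.0559 without the block). The anterior repressor hesx1.S was at 25.95, 17.6 and 32.9 CPM in DMSO and 9.25, 3.04 and 3.16 CPM with RA (−2.45 ± 0.27, edgeR adjusted p = 2.71e-05). The eye and forebrain gene six3.L was at 82.96, 72.2 and 112 CPM in DMSO and 50.6, 36.3 and 45.1 CPM with RA (−1.02 ± 0.12, edgeR adjusted p = 5.78e-05). In each of these 6 genes the RA and DMSO ranges did not overlap, which the naming rule required of all but six3.L.

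Calls for other forebrain genes went in both directions. Of the genes given here, the naming rule took lhx5.S, barhl2.S, six6.S, pax8.S, pax8.L and lhx1.L, and fezf2 and osr2 were listed markers. The others were chosen after their values were seen. Rises were called for emx2.S, described with its homeolog below, and for the LIM homeobox gene lhx9.L, at 0.834, 4.12 and 0.393 CPM in DMSO and 2.93, 7.44 and 3.61 CPM with RA (1.60 ± 0.37, edgeR adjusted p = 0.0155 and 0.667 without the block). The call of lhx9.L ended without DMSO library 3 or RA library 3 (edgeR adjusted p up to 0.102). The LIM homeobox gene lhx5.S fell from 6.46, 7.203 and 10.8 to 1.92, 1.01 and 0.902 CPM (−2.77 ± 0.47, edgeR adjusted p = 0.00138 and 0.0762 without the block). The homeobox gene barhl2.S fell from 1.98, 5.89 and 5.34 to 0.275, 1.07 and 0.1503 CPM (−3.24 ± 0.60, edgeR adjusted p = 0.00307 and 0.113 without the block). The zinc finger genes fezf2.L, fezf2.S and fezf1.L fell by 1.51, 1.48 and 1.24, and nkx2-1.L, of the ventral forebrain, by 2.17 ± 0.35 (edgeR adjusted p = 0.000891, 0.313 without the block). The eye homeobox genes six6.S and six6.L rose, the former from 4.38, 5.03 and 3.43 to 8.15, 14.3 and 17.97 CPM (1.65 ± 0.24, edgeR adjusted p = 0.000412) and the latter by a smaller step (0.80 ± 0.12, edgeR adjusted p = 0.000463 and 0.0962 without the block). The homeobox gene pax8 was a rise within the paired-type class, with pax8.S at 6.98, 3.99 and 3.03 CPM in DMSO and 16.3, 26.6 and 20.3 CPM with RA (2.27 ± 0.24, edgeR adjusted p = 2.19e-05). The L copy, pax8.L, was at 21.5, 16.3 and 10.96 CPM in DMSO and 44.2, 58.3 and 59.2 CPM with RA (1.76 ± 0.19, edgeR adjusted p = 2.95e-05). The pronephros, the embryonic kidney, expresses pax8 with lhx1 and osr2, and 4 of the 5 tested rows of these 3 genes rose. Among them lhx1.L was at 12.6, 5.300 and 16.1 CPM in DMSO and 37.6, 8.095 and 25.1 CPM with RA (0.95 ± 0.18, edgeR adjusted p = 0.0039 and 0.696 without the block), where the ranges overlapped and each pair rose.

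The cement gland, an anterior mucus-secreting organ of the tadpole, and the neighbouring mouth region gave falls in 5 of 5 tested marker rows. The homeobox gene pitx1.L fell by 1.00 ± 0.11. The abundant secreted protein gene ag1 changed far less, with ag1.S at 1174, 1671 and 1362 CPM in DMSO and 1074, 1136 and 1062 CPM with RA (−0.36 ± 0.09, edgeR adjusted p = 0.0251 and 0.28 without the block) and ag1.L at −0.38 ± 0.11, edgeR adjusted p = 0.0457 and 0.307 without the block. The call of ag1.S ended without DMSO library 2 or 3 or RA library 2 or 3 (edgeR adjusted p up to 0.204). The call of ag1.L ended without DMSO library 2 or 3 or RA library 1, 2 or 3 (edgeR adjusted p up to 0.324). Larger losses of abundance were found for olfm4.L, which encodes an olfactomedin-like secreted protein, at 783, 695 and 1086 CPM in DMSO and 486, 225 and 283 CPM with RA (−1.40 ± 0.17, edgeR adjusted p = 6.06e-05). The keratin gene krt70.L was at 699, 829 and 850.2 CPM in DMSO and 432, 455 and 429 CPM with RA (−0.85 ± 0.09, edgeR adjusted p = 1.34e-05). Its more abundant S copy, krt70.S, was not called, at a mean of 4699 CPM in DMSO and 4728 CPM with RA (0.01 ± 0.08, edgeR adjusted p = 0.971). For krt70 the difference of L minus S was −0.86 ± 0.13 (edgeR adjusted p = 0.00175). The gene gad1.2.L, for the GABA-synthesising enzyme, was at 552, 421 and 651 CPM in DMSO and 381, 287 and 301 CPM with RA (−0.74 ± 0.10, edgeR adjusted p = 0.000275 and 0.124 without the block), and the HLH inhibitor id3.L fell too (−0.64 ± 0.10, edgeR adjusted p = 0.00104 and 0.246 without the block). The prothymosin genes ptma.L (−0.26 ± 0.07, edgeR adjusted p = 0.0276 and 0.668 without the block) and ptma.S (−0.28 ± 0.07, edgeR adjusted p = 0.0295 and 0.634 without the block) were, with olfm4.L and krt70.L, the 4 called genes that lost most CPM. The call of ptma.L ended without DMSO library 2 or 3 or RA library 2 or 3 (edgeR adjusted p up to 0.21). The call of ptma.S ended without DMSO library 2 or 3 or RA library 2 or 3 (edgeR adjusted p up to 0.22). Placode markers gave 2 falls of 4 tested rows. Of 21 keratin genes 3 fell and 2 rose (1 and 0 without the block), the smallest p of a rise being that of krt12.4.L (0.34 ± 0.08, edgeR adjusted p = 0.0146 and 0.416 without the block). The call of krt12.4.L ended without DMSO library 2 or RA library 2 or 3 (edgeR adjusted p up to 0.121). The most abundant rise, krt12.5.S, went from 3023, 2717 and 3288 to 3517, 3496 and 3830 CPM (0.27 ± 0.07, edgeR adjusted p = 0.0427 and 0.361 without the block). The call of krt12.5.S ended without DMSO library 1 or 2 or RA library 1, 2 or 3 (edgeR adjusted p up to 0.263).

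Neural crest genes fell in 6 of 8 tested marker rows. The neural crest is a migratory population that forms at the edge of the neural plate. Expression of its zinc finger gene snai2.L was 115, 103 and 145 CPM in DMSO and 50.7, 11.9 and 17.3 CPM with RA (−2.38 ± 0.29, edgeR adjusted p = 6.94e-05). Expression of snai2.S was 8.34, 7.93 and 10.6 CPM in DMSO and 2.29, 1.07 and 1.35 CPM with RA (−2.54 ± 0.32, edgeR adjusted p = 0.000115). Expression of the bHLH gene twist1.S was 58.99, 61.1 and 47.4 CPM in DMSO and 29.2, 14.6 and 10.7 CPM with RA (−1.72 ± 0.18, edgeR adjusted p = 1.68e-05). RA library 1 was the highest of the 3 in each, and all were below the DMSO libraries. The summed level of the crest markers ran from 277 to 308 CPM in DMSO and from 70.6 to 193 CPM with RA. The 2 foxd3 copies were called with the block but not without it (−0.89 ± 0.20, edgeR adjusted p = 0.011 and 0.13 without the block for foxd3.L, −0.85 ± 0.22, edgeR adjusted p = 0.0309 and 0.389 without the block for foxd3.S). The call of foxd3.L ended without DMSO library 1 or 3 or RA library 2 or 3 (edgeR adjusted p up to 0.0978). The call of foxd3.S ended without DMSO library 1, 2 or 3 or RA library 2 or 3 (edgeR adjusted p up to 0.287). At the plate border msx2.L fell from 70.9, 69.1 and 63.9 to 26.6, 27.5 and 24.7 CPM (−1.37 ± 0.11, edgeR adjusted p = 6.52e-07). The AP-2 gene tfap2b.L fell from 31.4, 25.4 and 19.4 to 14.9, 10.8 and 5.34 CPM (−1.38 ± 0.21, edgeR adjusted p = 0.000547 and 0.251 without the block). Of 267 C2H2 zinc finger genes 30 fell and 7 rose (13 and 4 without the block). The zic genes, early neural and border factors, accounted for 7 of these falls, zic1.L, zic1.S, zic2.L, zic2.S, zic4.L, zic4.S and zic5.S. None of these 7 was called without the block, and single libraries decided others. The call of zic2.S ended without DMSO library 2 or 3 or RA library 2 or 3 (edgeR adjusted p up to 0.182). The call of zic4.L ended without DMSO library 2 or 3 or RA library 1, 2 or 3 (edgeR adjusted p up to 0.153). The receptor gene pdgfra.L of migrating crest fell by 1.04 ± 0.16 (edgeR adjusted p = 0.000669, 0.0827 without the block), while the chemokine receptor cxcr4.L fell from 99.2, 105 and 83.3 to 61.9, 43.7 and 42.8 CPM (−0.97 ± 0.11, edgeR adjusted p = 4.71e-05). By contrast cxcr4.S was not called, at a mean of 101.1 CPM in DMSO and 101.6 CPM with RA (0.003 ± 0.096, edgeR adjusted p = 0.994). For cxcr4 the difference of L minus S was −0.97 ± 0.11 (edgeR adjusted p = 0.000448).

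Mesoderm and endoderm genes gave calls in both directions. Of 8 GATA genes, which act in endoderm, heart, blood and ectoderm, 6 rose (2 without the block) and 0 fell, also at an unadjusted p below 0.05 and with DESeq2, with a median of 0.57. The values of gata3.S were 79.1, 85.8 and 80.6 CPM in DMSO and 207, 246 and 259 CPM with RA (1.53 ± 0.09, edgeR adjusted p = 2.45e-08). A second member, gata5.L, rose from 11.2, 14.2 and 18.04 to 36.9, 35.00 and 46.4 CPM (1.45 ± 0.13, edgeR adjusted p = 4.34e-06). Both copies of tbx1, a T-box gene of the pharyngeal region, rose. For tbx1.S the values were 33.6, 38.7 and 27.8 CPM in DMSO and 101, 127 and 93.1 CPM with RA (1.68 ± 0.10, edgeR adjusted p = 3.94e-08), and tbx1.L rose by 1.45 ± 0.12. The forkhead genes foxc1.L and foxc1.S, of the head and trunk mesoderm, rose by 3.32 ± 0.32 and 1.07 ± 0.17. Of the 6 tested rows of heart markers 4 fell, and of the 4 of prechordal plate and notochord 3 fell. All 4 tested copies of the cardiac genes nkx2-5 and isl1 fell, each call being lost without the block. The values of nkx2-5.S were 37.8, 33.5 and 28.9 CPM in DMSO and 27.6, 17.8 and 22.7 CPM with RA (−0.58 ± 0.13, edgeR adjusted p = 0.0143 and 0.313 without the block). The cardiac T-box gene tbx20.L was at 47.01, 49.9 and 32.4 CPM in DMSO and 34.1, 18.8 and 19.2 CPM with RA (−0.88 ± 0.16, edgeR adjusted p = 0.00328 and 0.164 without the block). The call of nkx2-5.S ended without DMSO library 2 or RA library 2 (edgeR adjusted p up to 0.124). The prechordal gene gsc.L went from 28.9, 11.4 and 28.6 to 6.78, 2.86 and 3.53 CPM (−2.40 ± 0.24, edgeR adjusted p = 1.13e-05). Its S copy, gsc.S, went from 7.82, 6.705 and 9.72 to 1.83, 1.61 and 1.28 CPM (−2.36 ± 0.28, edgeR adjusted p = 7.36e-05). Blood and endothelium markers, with 4 tested rows, did not pass the test. The endoderm gene sox17a.S was at −0.01 ± 0.11, edgeR adjusted p = 0.979, the tail gene cdx1.S at −0.34 ± 0.37, edgeR adjusted p = 0.705, the ionocyte gene foxi1.L at 0.44 ± 0.13, edgeR adjusted p = 0.0592, and the germ cell gene ddx4.L at −0.05 ± 0.09, edgeR adjusted p = 0.82. Among all tested marker rows of these tissues, 1 of 5 for endoderm and 1 of 3 for ionocytes rose. Calls numbered 0 of 3 for tail bud and posterior axis and 0 of 4 for germ cells.

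**Figure D4:**
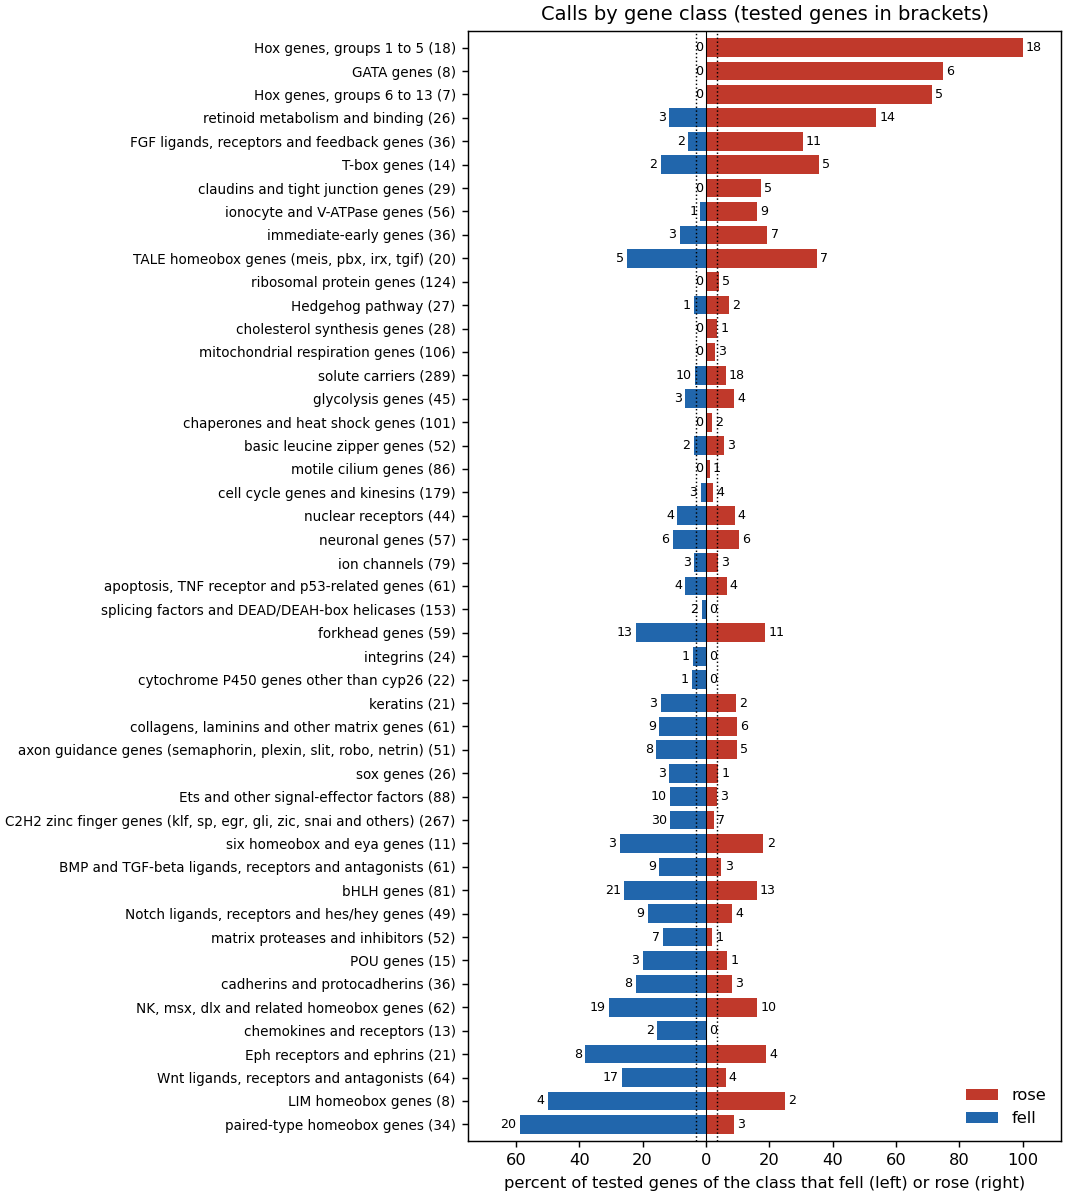
Percent of the tested genes of each class that rose (red, right) or fell (blue, left) with RA, with the number of calls at the end of each bar and the number tested in brackets; dotted lines mark the shares over all genes (3.5% and 3.17%). Hox, GATA and retinoid genes stand at the top, paired-type and LIM homeobox genes at the bottom, and classes with no call (histones, translation factors, proteasome) are not drawn.

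Growth factor pathways differed in the direction of their calls. In the FGF pathway, 11 of 36 tested genes rose and 2 fell (7 and 0 without the block). The rises held ligand, receptors and feedback inhibitors. Besides fgf8, the phosphatase dusp6.L, a feedback inhibitor that FGF signalling induces, was at 54.5, 50.7 and 43.8 CPM in DMSO and 184, 162 and 197 CPM with RA (1.87 ± 0.10, edgeR adjusted p = 9.48e-09). The inhibitor spry2.S rose from 17.8, 19.1 and 13.4 to 40.4, 48.03 and 41.6 CPM (1.38 ± 0.13, edgeR adjusted p = 7.09e-06). The receptor gene fgfr3.L rose from 16.6, 18.2 and 13.7 to 43.1, 38.6 and 34.5 CPM (1.25 ± 0.15, edgeR adjusted p = 5.27e-05). The Ets factor genes etv1.S and etv4.L, which FGF signalling also induces, rose by 1.15 ± 0.10 and 0.90 ± 0.10. A fall was called for flrt2.S, from 20.4, 19.03 and 19.4 to 12.3, 4.52 and 3.68 CPM (−1.68 ± 0.25, edgeR adjusted p = 0.000519 and 0.0905 without the block).

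Wnt genes showed the opposite balance, with 17 of 64 falling and 4 rising (4 and 3 without the block) and a median of −0.23. The Wnt-induced zinc finger genes sp5.L and sp5.S fell, the former from 29.9, 37.7 and 34.2 to 9.16, 7.32 and 4.96 CPM (−2.28 ± 0.19, edgeR adjusted p = 1.45e-06). The ligand wnt8b.S of the forebrain fell by 1.71 ± 0.27 and the Wnt agonist rspo2.L by 1.80 ± 0.28. Antagonists and feedback genes of the pathway were among the falls too, wif1.L, frzb.L, notum.S, axin2.S and sfrp2.L. Of these, the fit without the block is given only for sfrp2.L, below. The rises were the antagonist sfrp2.S, at 230.4, 245 and 133 CPM in DMSO and 689.6, 866 and 711 CPM with RA (1.92 ± 0.15, edgeR adjusted p = 8.14e-07), and 3 genes tied to signalling without beta-catenin or to neural tube, ror2.L (0.92), wnt5b.S (1.56) and wnt7a.S (2.66 ± 0.66, edgeR adjusted p = 0.0239 and 0.161 without the block). The call of wnt7a.S ended without DMSO library 1, 2 or 3 or RA library 1 or 3 (edgeR adjusted p up to 0.289). The rise of wnt5b.S was in the less abundant copy, from a mean of 2.01 CPM in DMSO to 5.88 CPM with RA. The more abundant wnt5b.L was not called, at a mean of 20.6 CPM in DMSO and 16.7 CPM with RA (−0.33 ± 0.18, edgeR adjusted p = 0.368).

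In the BMP and TGF-beta class 9 of 61 genes fell and 3 rose (2 and 1 without the block). The secreted factor pnhd.L, expressed in the Xenopus embryo, was at 63.2, 79.1 and 91.9 CPM in DMSO and 14.9, 5.95 and 7.22 CPM with RA (−3.16 ± 0.24, edgeR adjusted p = 5.73e-07). The 3 called copies of noggin-type BMP antagonists all fell, nog.L by 1.89 ± 0.28, nog2.S by 2.13 ± 0.33 and nog2.L by 1.37 ± 0.27 (edgeR adjusted p = 0.000538, 0.000669 and 0.00439, and 0.0893, 0.0212 and 0.201 without the block). The call of nog2.L ended without RA library 3 (edgeR adjusted p = 0.0506). The activin antagonist follistatin, fst.L, rose from 23.8, 12.8 and 11.2 to 86.8, 70.1 and 94.6 CPM (2.45 ± 0.18, edgeR adjusted p = 5.20e-07). In the Notch class 9 of 49 fell and 4 rose (2 and 0 without the block), with hes3.S at 28.2, 21.1 and 32.6 CPM in DMSO and 14.9, 9.23 and 15.4 CPM with RA (−1.07 ± 0.15, edgeR adjusted p = 0.000245 and 0.179 without the block). Among the rises hes1.L was at 84.1, 107 and 90.1 CPM in DMSO and 116, 137 and 152 CPM with RA (0.52 ± 0.09, edgeR adjusted p = 0.0015 and 0.143 without the block). Of 21 Eph receptors and ephrins, membrane proteins that sort cells at boundaries, 8 fell and 4 rose (3 and 4 without the block). Against the falls of epha4.S and epha7.L (−1.29 ± 0.22, edgeR adjusted p = 0.00187), the ligand efna1.L rose from 42.5, 40.05 and 40.6 to 80.9, 78.6 and 98.3 CPM (1.06 ± 0.11, edgeR adjusted p = 1.32e-05). Axon guidance genes gave 5 rises and 8 falls of 51 (1 and 2 without the block), led by sema3fl.L (2.52 ± 0.17, edgeR adjusted p = 1.73e-07) and the semaphorin receptor nrp2.L (−1.25 ± 0.11, edgeR adjusted p = 2.80e-06). The other copy, sema3fl.S, was not called (0.61 ± 0.18, edgeR adjusted p = 0.064), and the difference of L minus S was 1.92 ± 0.24 (edgeR adjusted p = 0.000749). In the Hedgehog pathway 2 of 27 rose and 1 fell (0 and 1 without the block), or 11.1% called against 6.67% of all genes. The fall was the effector gli3.L, from 100.4, 100.03 and 92.6 to 54.9, 49.8 and 36.8 CPM (−1.06 ± 0.11, edgeR adjusted p = 1.34e-05), and the co-receptor gas1.L was at 0.42 ± 0.10, edgeR adjusted p = 0.0196 and 0.18 without the block. The call of gas1.L ended without DMSO library 2 or 3 or RA library 2 or 3 (edgeR adjusted p up to 0.16). Of 13 chemokine and receptor genes 0 rose and 2 fell, with 0 and 2 by DESeq2 and 1 and 3 at an unadjusted p below 0.05. Of 61 genes for apoptosis, TNF receptors and p53 functions 4 rose and 4 fell (2 and 1 without the block), with the receptor tnfrsf19.S lowest in p among the falls, at 19.2, 15.5 and 14.6 CPM in DMSO and 8.52, 7.74 and 4.74 CPM with RA (−1.24 ± 0.19, edgeR adjusted p = 0.000572).

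Transcription factor classes without a single direction included forkhead genes (11 of 59 rose, 13 fell), bHLH genes (13 of 81 rose, 21 fell), T-box genes (5 of 14 rose, 2 fell) and NK, msx and dlx genes (10 of 62 rose, 19 fell). Without the block the rises and falls were 7 and 2 for forkhead, 3 and 2 for bHLH, 2 and 0 for T-box, and 4 and 4 for NK, msx and dlx genes. Among forkhead genes foxi4.2.S, of ionocytes in the epidermis, rose from 17.4, 16.5 and 18.5 to 57.1, 40.5 and 55.7 CPM (1.52 ± 0.12, edgeR adjusted p = 1.25e-06). Another forkhead gene, foxl2.L, fell from 9.38, 9.88 and 8.88 to 2.93, 0.833 and 1.13 CPM (−2.67 ± 0.32, edgeR adjusted p = 8.01e-05). Ionocyte and V-ATPase genes gave 9 rises and 1 fall of 56, and 2 rises and 0 falls without the block. The fall was foxi2.L (−1.14 ± 0.31, edgeR adjusted p = 0.0356 and 0.403 without the block). The call of foxi2.L ended without DMSO library 1, 2 or 3 or RA library 2 or 3 (edgeR adjusted p up to 0.242). Of 26 sox genes 1 rose and 3 fell, and of 15 POU genes 1 rose and 3 fell, with 0 rises and 1 fall in each class without the block. Over all tested genes 3.5% rose and 3.17% fell, so a single rise in such a class is not a result of the class. The POU rise was pou5f3.1.L (0.40 ± 0.09, edgeR adjusted p = 0.0144 and 0.746 without the block), and pou3f2.L, a neural member, fell from 11.9, 8.06 and 4.21 to 4.31, 2.02 and 1.804 CPM (−1.58 ± 0.25, edgeR adjusted p = 0.00101 and 0.165 without the block). The call of pou5f3.1.L ended without DMSO library 1 or RA library 1 or 3 (edgeR adjusted p up to 0.13). Of 8 LIM homeobox genes 2 rose and 4 fell (0 and 0 without the block). Basic leucine zipper genes gave 3 rises and 2 falls of 52 (1 and 0), with cebpd.S from 36.5, 21.6 and 17.5 to 51.03, 62.5 and 77.4 CPM (1.41 ± 0.21, edgeR adjusted p = 0.000616). Called genes made up 9.62% of that class against 6.67% of all genes. Ets and other signal-effector factors gave 3 rises and 10 falls of 88 (2 and 0). Immediate-early genes gave 7 rises and 3 falls of 36 (2 and 2 without the block), led by btg2.S at 74.3, 63.1 and 58.6 CPM in DMSO and 199.98, 176 and 220.5 CPM with RA (1.61 ± 0.10, edgeR adjusted p = 9.71e-08).

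Among surface genes, cadherins gave 3 rises and 8 falls of 36 (1 and 4 without the block), with pcdh8l.S from 105, 73.1 and 75.5 to 48.5, 23.04 and 29.3 CPM (−1.37 ± 0.14, edgeR adjusted p = 1.23e-05). Matrix genes gave 6 rises and 9 falls of 61 (2 and 0 without the block), among them emilin1.L, an elastic fibre glycoprotein, at 37.6, 33.5 and 31.4 CPM in DMSO and 143, 172 and 262 CPM with RA (2.45 ± 0.16, edgeR adjusted p = 1.05e-07). The abundant hyaluronan synthase has1.S was at 1278, 1033 and 2254 CPM in DMSO and 1587, 1581 and 3485 CPM with RA (0.52 ± 0.10, edgeR adjusted p = 0.00285 and 0.765 without the block), and its groups overlapped. The fall with the smallest p in that class was the link protein hapln3.L (−0.58 ± 0.11, edgeR adjusted p = 0.00267 and 0.0593 without the block). Matrix proteases and inhibitors gave 1 rise and 7 falls of 52 (1 and 0 without the block). The metalloprotease adamts18.S was the rise, at 8.44, 3.04 and 2.02 CPM in DMSO and 25.5, 13.6 and 18.4 CPM with RA (2.25 ± 0.28, edgeR adjusted p = 8.89e-05). The gene of the collagen chaperone serpinh1.S led the falls, at 125, 114 and 81.1 CPM in DMSO and 74.7, 42.6 and 29.8 CPM with RA (−1.19 ± 0.15, edgeR adjusted p = 8.71e-05 and 0.11 without the block). Integrins gave 0 rises and 1 fall of 24, itga6.L (−0.62 ± 0.12, edgeR adjusted p = 0.00351 and 0.0546 without the block), with 0 and 3 by DESeq2 and 0 and 8 at an unadjusted p below 0.05. The edgeR calls were 4.17% of the integrins against 6.67% of all genes. Claudins and tight junction genes gave 5 rises and 0 falls of 29, with 0 falls also by DESeq2 and at an unadjusted p below 0.05 and 0 calls without the block. Their smallest p was that of cldn6.1.S (0.62 ± 0.10, edgeR adjusted p = 0.0013 and 0.437 without the block).

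Of 289 solute carriers 18 rose and 10 fell (9 and 0 without the block), against 3.5% and 3.17% of all genes, so the share of falls was near the background. The fatty acid transporter slc27a3.L rose from 91.3, 85.7 and 115 to 167, 139 and 195 CPM (0.78 ± 0.08, edgeR adjusted p = 8.19e-06). The amino acid transporter slc38a2.L fell from 176, 184 and 221 to 118, 133 and 158 CPM (−0.51 ± 0.08, edgeR adjusted p = 0.000581 and 0.202 without the block). Neuronal genes gave 6 rises and 6 falls of 57 (1 and 0 without the block), with the vesicle protein gene vamp2.L higher, at 4.69, 5.300 and 2.53 CPM in DMSO and 13.6, 10.4 and 13.5 CPM with RA (1.59 ± 0.24, edgeR adjusted p = 0.000538), and the synuclein sncg.S lower (−1.66 ± 0.31, edgeR adjusted p = 0.0035 and 0.0973 without the block). Ion channels gave 3 rises and 3 falls of 79 (2 and 0 without the block), shares near the background and not a result of the class. Among them was the potassium channel kcnq1.L, which fell by 0.50 ± 0.08 (edgeR adjusted p = 0.000955 and 0.372 without the block). In glycolysis 4 of 45 rose and 3 fell (2 and 0 without the block). The aldolase aldoc.L rose from 8.86, 8.24 and 7.81 to 14.5, 18.04 and 25.6 CPM (1.21 ± 0.19, edgeR adjusted p = 0.000637), while the enolase eno1.L was at −0.71 ± 0.18, edgeR adjusted p = 0.0271 and 0.911 without the block. The call of eno1.L ended without DMSO library 1 or 2 or RA library 2 or 3 (edgeR adjusted p up to 0.187). Cholesterol synthesis gave 1 rise and 0 falls of 28, the sterol reductase dhcr7.S (0.36 ± 0.10, edgeR adjusted p = 0.0364 and 0.301 without the block), with 0 falls also by DESeq2 and at an unadjusted p below 0.05. That rise is 3.57% of the class, near the 3.5% of all genes, and not a result of the class. The call of dhcr7.S ended without DMSO library 2 or 3 or RA library 2 or 3 (edgeR adjusted p up to 0.335).

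Genes of general cell maintenance gave fewer calls than the background of 3.5% rising and 3.17% falling, apart from rises of ribosomal protein genes. Those rises were near the background, at 4.03% of their class. Histone genes (22), translation factors and tRNA synthetases (119) and proteasome genes (63) had 0 calls by edgeR. For these 3 classes DESeq2 called 0, 1 and 0 genes. At an unadjusted p below 0.05 there were 0 histone genes, 11 rises and 2 falls of translation factors and synthetases, and 6 rises of proteasome genes. Of 153 splicing factors and helicases 0 rose and 2 fell, ddx23.L among them (−0.82 ± 0.22, edgeR adjusted p = 0.036 and 0.621 without the block), with 0 and 2 by DESeq2 and 6 and 7 at an unadjusted p below 0.05. The call of ddx23.L ended without DMSO library 1, 2 or 3 or RA library 1 or 2 (edgeR adjusted p up to 0.222). Of 179 cell cycle genes and kinesins 4 rose and 3 fell, with kif26a.S lower at 25.4, 31.4 and 15.4 CPM in DMSO and 7.79, 15.8 and 8.27 CPM with RA (−1.18 ± 0.17, edgeR adjusted p = 0.0003 and 0.182 without the block). No gene of these 5 classes was called without the block. Motile cilium genes gave 1 rise of 86, foxj1.S (0.40 ± 0.11, edgeR adjusted p = 0.0457 and 0.403 without the block). The call of foxj1.S ended without DMSO library 1 or 2 or RA library 2 or 3 (edgeR adjusted p up to 0.283). Chaperones and heat shock genes gave 2 rises of 101, with the chaperonin subunit cct3.S at 0.32 ± 0.08, edgeR adjusted p = 0.0342 and 0.488 without the block, and the stress gene hspa1a.L was at 0.02 ± 0.63, edgeR adjusted p = 0.991. The call of cct3.S ended with any 1 of the 6 libraries left out (edgeR adjusted p up to 0.29).

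Ribosomal protein genes gave 5 rises and 0 falls of 124, and 114 of them had a fold change above 0, with a median of 0.17. The rises were 4.03% of the class, near the 3.5% of all genes, and their number is not a result of the class. The smallest p was that of rpl15.L (0.31 ± 0.08, edgeR adjusted p = 0.0224 and 0.388 without the block). The call of rpl15.L ended without DMSO library 2 or 3 or RA library 3 (edgeR adjusted p up to 0.213). For mitochondrial respiration the counts were 3 and 0 of 106, the median was 0.15, and the electron carrier cytochrome c, cycs.S, was at 0.38 ± 0.08, edgeR adjusted p = 0.00539 and 0.537 without the block. The call of cycs.S ended without DMSO library 3 (edgeR adjusted p = 0.0708). DESeq2 called 8 rises and 0 falls in the first class and 5 and 0 in the second. At an unadjusted p below 0.05 there were 67 rises and 1 fall in the first and 20 rises and 0 falls in the second. Over all genes 3769 of 20811 had such a p in either direction, so the number in the second class was near that share. No member of either class was called without the block.

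Most called genes belonged to none of the 50 classes. Of 1106 called genes with a symbol, 644 were outside them and 462 in at least 1. Of all 14370 tested genes with a symbol, 2906 were in at least 1 class, a smaller share than among the called genes. The lists were chosen with earlier results of these data known. Of the genes below, the naming rule took fbp1.L, penk.L, crisp1.7.L and the provisional msmb and vgll3. The others were chosen after their values were seen. In the apelin system 2 ligand genes rose and both copies of the receptor gene fell. The ligand gene apln.L was at 38.5, 46.9 and 46.2 CPM in DMSO and 66.3, 63.03 and 72.5 CPM with RA (0.62 ± 0.10, edgeR adjusted p = 0.00128 and 0.0512 without the block). The other ligand gene, apela.S, was at 1.77, 1.95 and 1.97 CPM in DMSO and 6.87, 6.25 and 4.59 CPM with RA (1.61 ± 0.27, edgeR adjusted p = 0.00126). The receptor gene aplnr.S was at 76.7, 73.5 and 78.7 CPM in DMSO and 45.99, 38.8 and 45.3 CPM with RA (−0.82 ± 0.10, edgeR adjusted p = 0.000101). The receptor's L copy fell by less (−0.39 ± 0.09, edgeR adjusted p = 0.0171 and 0.217 without the block). The call of aplnr.L ended without DMSO library 2 or 3 or RA library 2 or 3 (edgeR adjusted p up to 0.129). Rises were also called for enzymes of lipid and carbohydrate use. The gluconeogenic enzyme fbp1.L was at 568, 524 and 683 CPM in DMSO and 988, 1123 and 1448 CPM with RA (1.00 ± 0.08, edgeR adjusted p = 7.77e-07). The lipase gene lipg.L rose from 4.06, 5.39 and 5.84 to 18.3, 29.8 and 30.1 CPM (2.35 ± 0.17, edgeR adjusted p = 2.63e-07). A further lipase gene, lipe.S, rose from 9.59, 6.43 and 5.45 to 29.3, 21.1 and 24.7 CPM (1.83 ± 0.16, edgeR adjusted p = 1.99e-06). Its L copy, lipe.L, was not called, at a mean of 9.31 CPM in DMSO and 8.46 CPM with RA (−0.10 ± 0.25, edgeR adjusted p = 0.891). For lipe the difference of L minus S was −1.90 ± 0.27 (edgeR adjusted p = 0.0014 and 0.0753 without the block). The gene ppp1r3c.2.S, for a glycogen-targeting phosphatase subunit, rose from 8.65, 8.88 and 9.22 to 25.3, 34.7 and 34.7 CPM (1.82 ± 0.14, edgeR adjusted p = 5.82e-07). Falls were called for the neuropeptide genes penk.L, for proenkephalin, at 5.84, 2.401 and 4.16 CPM in DMSO and 1.37, 0.179 and 0.301 CPM with RA (−3.05 ± 0.48, edgeR adjusted p = 0.000752 and 0.189 without the block), and sst.1.S. The latter, for somatostatin, was at 25.4, 22.3 and 15.6 CPM in DMSO and 8.15, 4.17 and 2.56 CPM with RA (−2.23 ± 0.26, edgeR adjusted p = 5.78e-05 and 0.0967 without the block). Among genes with a provisional symbol, msmb was at 36.6, 23.1 and 51.6 CPM in DMSO and 9.53, 6.73 and 14.2 CPM with RA (−1.87 ± 0.19, edgeR adjusted p = 1.59e-05 and 0.108 without the block). The secreted protein gene crisp1.7.L was at 28.7, 33.6 and 23.2 CPM in DMSO and 5.77, 3.99 and 0.977 CPM with RA (−3.13 ± 0.27, edgeR adjusted p = 2.11e-06). The transcriptional corepressor genes gse1 and ski rose in both copies, gse1.L and gse1.S by 1.23 and 1.17 and ski.L and ski.S by 1.52 and 1.37, the last with an edgeR adjusted p of 0.0553 without the block. The midkine gene mdk, for an abundant heparin-binding growth factor, rose in both copies, mdk.L from 396, 382 and 380.2 to 604, 529 and 636 CPM (0.61 ± 0.07, edgeR adjusted p = 6.94e-05). A gene with the provisional symbol vgll3, for a cofactor of TEAD factors, went from 16.8, 12.9 and 8.93 to 0.275, 0.179 and 0.451 CPM (−5.37 ± 0.45, edgeR adjusted p = 1.71e-06).

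The genome of *X. laevis* was formed by joining 2 ancestral genomes, and a gene kept from both is present as copies named L and S, called homeologs. The response of the 2 copies was compared in 3512 pairs in which both were tested. Both copies rose in 54 pairs and both fell in 68, and in 358 pairs a single copy passed. Of those 358 pairs the other copy had the same sign in 241. A call in a single copy does not show that the copies differ, so the difference in log2 fold change was tested itself. It was called in 145 pairs (4.13% of 3512), with the L copy more upward in 65 and the S copy in 80. This count fell to 35 without the block, to 61 with limma on the ratio of the copies, and to between 58 and 104 with single libraries left out. How the authors' counter handled reads shared by both copies is not given in the sources used here.

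In 8 pairs the copies were called in opposite directions. The difference was called in all 8, which their choice by opposite calls from the same counts makes likely, so it is no separate support. Without the block the call held in 1 copy of 3 pairs and in neither copy of the other 5, and the difference was called in 6. The L copy rose and the S copy fell for anxa2, sox9, lrrc1 and pcdh8, and the reverse held for sfrp2, ephb4, emx2 and vsx1. The Wnt antagonist sfrp2 had the smallest p. Its S copy rose, as given above, while sfrp2.L was at 65.04, 60.1 and 54.1 CPM in DMSO and 58.9, 35.6 and 32.5 CPM with RA (−0.53 ± 0.15, edgeR adjusted p = 0.0441 and 0.453 without the block), a difference of L minus S of −2.49 ± 0.19 (edgeR adjusted p = 4.7e-05). The call of sfrp2.L ended without DMSO library 1, 2 or 3 or RA library 2 or 3 (edgeR adjusted p up to 0.307). For sox9, a factor of neural crest and cartilage, sox9.L rose from 31.3, 18.5 and 21.2 to 59.8, 35.7 and 63.7 CPM (1.15 ± 0.15, edgeR adjusted p = 0.000114 and 0.083 without the block). Its S copy, sox9.S, fell from 63.6, 56.5 and 73.1 to 40.3, 32.5 and 27.1 CPM (−0.95 ± 0.14, edgeR adjusted p = 0.000469). The ranges of each copy did not overlap, and the difference was 2.12 ± 0.23 (edgeR adjusted p = 0.000397). For the membrane-binding annexin anxa2, anxa2.L was at 164, 195 and 163 CPM in DMSO and 223, 287 and 224 CPM with RA (0.49 ± 0.10, edgeR adjusted p = 0.00554 and 0.342 without the block). The S copy, anxa2.S, was at 393, 436 and 343 CPM in DMSO and 312, 284 and 223 CPM with RA (−0.53 ± 0.08, edgeR adjusted p = 0.000617 and 0.269 without the block), a difference of 1.01 ± 0.09 (edgeR adjusted p = 0.000242). The call of anxa2.L ended without RA library 3 (edgeR adjusted p = 0.0679). In emx2, a forebrain homeobox gene, emx2.L went from 6.57, 6.48 and 2.81 to 2.02, 2.38 and 0.752 CPM and emx2.S from 7.400, 7.16 and 3.65 to 16.2, 10.2 and 7.82 CPM, with calls at −1.65 ± 0.28, edgeR adjusted p = 0.00144 and 0.271 without the block for the L copy and 0.88 ± 0.20, edgeR adjusted p = 0.0153 and 0.368 without the block for the S copy. The call of emx2.S ended without DMSO library 1 or 3 or RA library 1 or 3 (edgeR adjusted p up to 0.106). In ephb4, an ephrin receptor, ephb4.L fell (−0.47 ± 0.11, edgeR adjusted p = 0.0124 and 0.108 without the block) and ephb4.S rose (0.63 ± 0.11, edgeR adjusted p = 0.00158), a difference of −1.10 ± 0.12 (edgeR adjusted p = 0.000427). The call of ephb4.L ended without DMSO library 1 or 3 or RA library 1 or 2 (edgeR adjusted p up to 0.111). For the retinal homeobox gene vsx1, vsx1.L was at 6.57, 11.8 and 5.001 CPM in DMSO and 5.31, 5.18 and 1.73 CPM with RA (−0.997 ± 0.26, edgeR adjusted p = 0.0336 and 0.71 without the block), and vsx1.S was at 1.35, 6.12 and 1.01 CPM in DMSO and 9.44, 10.3 and 2.93 CPM with RA (1.56 ± 0.35, edgeR adjusted p = 0.0113 and 0.735 without the block), with overlapping ranges in both. The call of vsx1.L ended without DMSO library 2 or 3 or RA library 2 or 3 (edgeR adjusted p up to 0.223). The call of vsx1.S ended without DMSO library 1 or RA library 1 or 3 (edgeR adjusted p up to 0.0721). For lrrc1, lrrc1.L was at 0.50 ± 0.12, edgeR adjusted p = 0.0155 and 0.394 without the block, and lrrc1.S at −0.39 ± 0.10, edgeR adjusted p = 0.0262 and 0.452 without the block. The call of lrrc1.L ended without DMSO library 2 or 3 or RA library 2 (edgeR adjusted p up to 0.146). The call of lrrc1.S ended without DMSO library 1 or 3 or RA library 1 or 3 (edgeR adjusted p up to 0.203). For the protocadherin pcdh8, pcdh8.L was at 1.71 ± 0.30, edgeR adjusted p = 0.00219 and 0.183 without the block, and pcdh8.S at −1.12 ± 0.26, edgeR adjusted p = 0.015 and 0.778 without the block. The call of pcdh8.S ended without DMSO library 3 or RA library 2 or 3 (edgeR adjusted p up to 0.0979). The difference was not called without the block in lrrc1 (edgeR adjusted p = 0.0722) or pcdh8 (edgeR adjusted p = 0.0916), and that of pcdh8 was also lost without RA replicate 2 (edgeR adjusted p = 0.0504).

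Of the 6 pairs with the smallest p, 3 more differed in size or in one copy. The mitotic phosphatase gene cdc25b.S rose from 52.9, 29.8 and 42.7 to 94.4, 63.3 and 76.5 CPM (0.92 ± 0.12, edgeR adjusted p = 0.000131 and 0.0585 without the block). The L copy, cdc25b.L, was at 133, 104 and 115 CPM in DMSO and 123, 73.2 and 89.8 CPM with RA (−0.32 ± 0.10, edgeR adjusted p = 0.0754), a difference of −1.25 ± 0.13 (edgeR adjusted p = 0.000397). The mitotic kinase gene mastl.L rose from 32.3, 30.7 and 47.1 to 89.6, 63.3 and 101 CPM (1.19 ± 0.12, edgeR adjusted p = 1.56e-05). The S copy, mastl.S, was at 56.8, 70.8 and 67.9 CPM in DMSO and 60.9, 61.2 and 64.2 CPM with RA (−0.07 ± 0.10, edgeR adjusted p = 0.787), a difference of 1.26 ± 0.14 (edgeR adjusted p = 0.000397). Both copies of gbx2.2 rose, the S copy by more, with a difference of L minus S of −1.59 ± 0.17 (edgeR adjusted p = 0.000397). For 3 of the strongest responders the difference was not called. The difference was −0.33 ± 0.09 (edgeR adjusted p = 0.0726) for cyp26a1, 0.04 ± 0.54 (edgeR adjusted p = 0.986) for hoxb5 and −0.08 ± 0.09 (edgeR adjusted p = 0.759) for znf703, and a p above the threshold does not show that the copies respond alike.

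**Figure D5:**
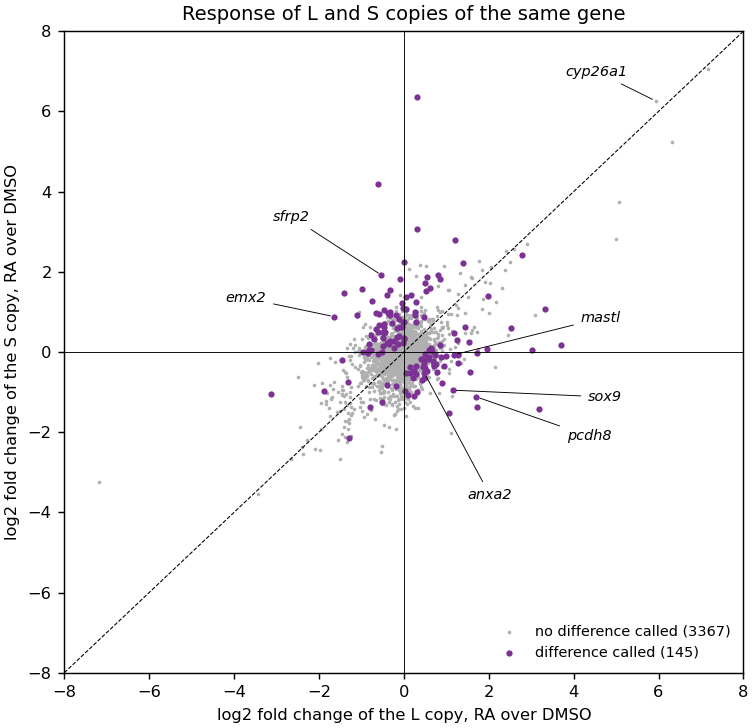
Log2 fold change of the S copy against that of the L copy for the 3512 homeolog pairs, with pairs whose difference was called in purple (145) and the line of equal response dashed. Named pairs include sfrp2 and emx2 in the upper left and sox9, anxa2 and pcdh8 in the lower right, where the copies were called in opposite directions.

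Called genes were also read in their chromosomal order, taken from the RefSeq annotation of assembly Xenopus_laevis_v10.1 by symbol and without coordinates, since the build of the counts is not given. Of the tested genes 16869 were placed, 1256 of them called. There were 17 runs of at least 3 neighbouring tested genes called in the same direction, 13 of rises and 4 of falls, holding 62 genes. The longest were the hoxb clusters, with 7 genes from hoxb1.S to hoxb7.S on chromosome 9_10S and 6 from hoxb1.L to hoxb7.L on 9_10L. Beyond Hox genes, aldh18a1.L and exoc6.L rose on both sides of cyp26a1.L and cyp26c1.L on 7L, from 22.3, 22.7 and 13.9 to 51.6, 69.6 and 63.1 CPM and from 0.625, 2.81 and 1.69 to 7.15, 14.9 and 14.4 CPM. On 1L septin5.L, gp1bb.L and tbx1.L rose side by side. The runs of falls included plscr2.S, zic4.S and zic1.S on 5S and crisp1.7.L and tfap2b.L with an unnamed gene on 5L. These runs are a description with no test, and neighbouring copies of a gene family can share reads.

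The 3 samples treated with 10 µM 4-oxo-RA share the DMSO libraries with the RA samples and differ in dose, so the values are set side by side without a comparison. For cyp26a1.S the mean was 1152 ± 150.2 CPM with RA and 545 ± 19.2 CPM with 4-oxo-RA (SD, n = 3), for dhrs3.L 1079 ± 115 CPM and 713 ± 108 CPM, and for cyp26c1.S 767 ± 65.4 CPM and 703 ± 169.9 CPM. For hoxb5.L it was 14.7 ± 8.705 CPM and 5.51 ± 2.496 CPM. Among the falls egr2.L was at 0.647 ± 0.2404 CPM and 0.939 ± 0.574 CPM and otx2.L at 61.95 ± 19.99 CPM and 83.5 ± 20.5 CPM. At the edge of the calls stood foxc2.S, called at −0.50 ± 0.14 (edgeR adjusted p = 0.0498), and src.L, not called at 0.29 (edgeR adjusted p = 0.0503).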

How the data were processed

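RNA from anterior explants of *X. laevis* embryos was sequenced as 9 libraries, 3 for each of 1 µM RA, 10 µM 4-oxo-RA and DMSO. Per the labels' protocols, polyadenylated RNA was made into stranded libraries and read as paired ends. For alignment, the submitters' processing notes name STAR 2.7.3. The counting program, genome build and annotation are not given in the sources used here. The deposited values were whole-number counts per gene, with L and S homeologs counted apart and 0 rows without a gene name. The 9 deposited single-sample tables equalled their columns of the joint count table.

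All 9 libraries were fitted in 1 model of treatment and replicate number with edgeR 4.0.16 in R 4.3.3, by the quasi-likelihood test after TMM scaling and filterByExpr. p-values were adjusted over 20811 genes by the Benjamini-Hochberg method. The 4-oxo-RA libraries stayed in the fit for its spread, leaving 4 residual degrees of freedom, and the biological coefficient of variation was 0.138 with the block and 0.272 without. The pairing by number is that of the column names. The labels do not tie numbers to females. Deviations from the group means correlated at 0.434 to 0.536 for the 9 same-numbered pairs of libraries and at −0.326 to −0.132 for the others, so that every same-numbered pair exceeded 0.1. Deviations within a group sum to 0 by construction. Negative values on average for the others therefore follow from the positive ones and are no separate support for the pairing. The chi-square between replicates, divided by its degrees of freedom, was 14.3 to 21.6, well above sampling noise.

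For 3512 L and S pairs, counts of both copies were fitted with terms for library, copy and copy by number, and the copy by RA term was tested. Alternatives were another normalization, 2 other filters, DESeq2 1.42.0, limma 3.58.1, the fit without the block, 2 thresholds, summed homeologs and omissions of libraries. Tables were made with Python 3.11.15, pandas 2.3.3 and numpy 2.4.6. The fits were tested on simulated data.

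Genes were named by a fixed rule. It took the 12 largest rises and falls and the 8 of each with the smallest p among called genes with a full symbol, a mean of at least 2 CPM and no overlap. It added the 6 largest gains and losses in CPM among those genes, the member of each class with the smallest p in each direction, 6 homeolog pairs, 2 rises and 2 falls without a full symbol, and the first marker of each tissue. A few genes that this rule took are not reported here. Other named genes were chosen after their values were seen, and the symbol patterns of several classes were corrected after that too. The members and lists were chosen with earlier results of these data known.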

Additional observations from a re-analysis of the deposited data

How the results depend on the processing

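The replicate block had the largest effect of the alternatives to the fit. Without the replicate block 349 genes were called in place of 1389, with 254 rises and 95 falls, and 35 homeolog pairs in place of 145. Without a filter on low counts falls numbered 994. At an adjusted p below 0.01 there were 770 calls, 465 rises, 305 falls and 68 pairs. With a 2-fold minimum there were 581 calls, 333 rises and 248 falls. The test of the copies by limma on their ratio called 61 pairs. With single libraries or a whole replicate number left out, called genes ranged from 732 to 1338, rises from 440 to 667, falls from 292 to 671 and pairs from 58 to 104. The cause was not tested, except that stricter thresholds by construction call fewer genes and omissions leave fewer libraries. The count of called genes stayed within 1.5 times of 1389 with RLE normalization (1393), at least 10 counts in every RA and DMSO library (1266), DESeq2 (1453), limma-voom (1562), RA and DMSO libraries alone with the block (1476) and L and S rows summed (1150). Of 131 genes named by rule 123 were called. Their 1583 values under the alternatives kept direction and call in 1454 cases and lost the call in 129, and 0 reversed. The call was lost without the block for 49 of these genes, in at least 1 single-library omission for 20 and in any of 6 other alternatives for 4. The 72 values of the 6 named pairs kept theirs. The comparison of promoter motifs was not run. Depth limits genes below about 1 CPM, where a call needed a large fold change.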
